A study of Mus musculus with 20 samples.

Results

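The hormone FGF23, its co-receptor Klotho and the genes through which they act on phosphate and vitamin D were examined in bone marrow and kidney of mice given oxaliplatin, a platinum compound used against cancer that crosslinks DNA. The set holds 10 of the 55486 genes in the count tables: Fgf23, Kl, Fgfr1, Slc34a1, Slc34a3, Cyp27b1, Cyp24a1, Vdr, Phex and Dmp1. They were found by symbol in both tables. The set had been chosen with results of these same libraries in view, so differences of these 10 genes between treatments are given as a description, without p-values. Enough counts for a comparison were present for 6 of the 10 in bone marrow and for 7 in kidney.

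FGF23 is a hormone made mainly by osteocytes, the cells embedded in bone. In the kidney it binds FGF receptors, chiefly FGFR1, together with Klotho, and lowers the sodium-phosphate transporters NaPi-IIa (Slc34a1) and NaPi-IIc (Slc34a3), so that more phosphate is lost in urine. It also lowers the enzyme that makes active vitamin D (Cyp27b1) and raises the enzyme that degrades it (Cyp24a1), while PHEX and DMP1 restrain FGF23 in osteocytes and the vitamin D receptor (Vdr) carries the signal of the active vitamin.

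There were 4 groups of 5 libraries, each library from a different mouse of its tissue and treatment: marrow with vehicle, marrow with oxaliplatin, kidney with vehicle and kidney with oxaliplatin. C57BL/6 mice, 10 weeks old at the start, received either 10 mg/kg oxaliplatin in 5% dextrose or 5% dextrose alone (vehicle), injected intraperitoneally over 8 weeks, with no other agent and no altered gene in any group. At 6 days after dosing ended, marrow was spun out of the cut long bones of the hind leg, so bone-embedded cells were not collected as such; how kidney was collected is not described. Mice of both sexes are named in the methods, while RNA of 4 Y-linked genes was present in every library, summing to between 99.2 and 173.0 CPM (counts relative to a common scaled library size) in marrow and between 77.5 and 110.5 CPM in kidney, and whether same-numbered marrow and kidney libraries came from the same mouse is not stated.

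Total counts ranged from 30660153 to 41140527 in marrow and from 24393007 to 30925430 in kidney. Values below are CPM after TMM scaling within each tissue, and 3 counts, taken as the floor, equal 0.0668 to 0.0975 CPM in marrow and 0.090 to 0.130 CPM in kidney, for counting error only. Between treatments, 23.3% of the 22363 genes tested in marrow and 11.5% of the 19293 tested in kidney were called, meaning an adjusted p under 0.05 in edgeR and a fold change beyond 1.5. Some marrow libraries stood apart. Oxaliplatin mice 3 and 4 had the least granulocyte RNA (summed markers 8787 and 10380 CPM, against 17190 to 23970 CPM in the other 8), and skeletal muscle RNA was present in every library, from 9.75 to 103.4 CPM with vehicle and from 43.6 to 778.9 CPM with oxaliplatin. Changes of gene level in these bulk samples cannot be told apart from changes in the share of the cells that carry the gene.

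Fgf23 (ENSMUSG00000000182, GRCm38 chromosome 6, 127072902 to 127081408, plus strand, protein-coding) was present in every marrow library. The 5 vehicle mice had 8, 6, 50, 24 and 31 reads of it, and the 5 oxaliplatin mice had 3266, 3702, 1442, 1756 and 3671. All 5 oxaliplatin mice thus lay far above all 5 vehicle mice. On the CPM scale the level was 0.739 ± 0.577 (SD, n = 5) with vehicle and 76.4 ± 37.5 (SD, n = 5) with oxaliplatin, a log2 fold change of 6.70 (SE 0.585), or 104-fold. By size of increase it ranked 15 of the 22363 genes tested in marrow. Within the oxaliplatin group the highest mouse (116.0 CPM, mouse 2) exceeded the lowest (33.6 CPM, mouse 3) 3.45-fold, and within the vehicle group the range spanned 9.02-fold. The log2 fold change stayed between 6.44 and 7.17 when any single library was left out, and was 7.13 without oxaliplatin mice 3 and 4. In kidney Fgf23 was nearly absent, with 1 read in 1 vehicle mouse and 0 reads in the other 9.

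The 250 bases before the annotated start of Fgf23 and of 2 genes of its axis in kidney are shown, the co-receptor gene Kl and the vitamin D activating gene Cyp27b1, because the largest differences of the set in each tissue were those of Fgf23 and Cyp27b1, and Kl decides where the hormone acts. They are RefSeq sequences of GRCm38.p6, 5′ to 3′ on the strand of the gene, at chr6:127072652-127072901 (plus strand), chr5:150952357-150952606 (plus strand) and chr10:127047996-127048245 (plus strand). Capitals mark the motif match found in them.
Fgf23: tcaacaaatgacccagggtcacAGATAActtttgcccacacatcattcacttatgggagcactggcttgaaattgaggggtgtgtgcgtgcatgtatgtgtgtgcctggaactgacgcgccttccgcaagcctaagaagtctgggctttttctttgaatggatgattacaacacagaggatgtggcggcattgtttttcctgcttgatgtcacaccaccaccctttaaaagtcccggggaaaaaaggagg
Kl: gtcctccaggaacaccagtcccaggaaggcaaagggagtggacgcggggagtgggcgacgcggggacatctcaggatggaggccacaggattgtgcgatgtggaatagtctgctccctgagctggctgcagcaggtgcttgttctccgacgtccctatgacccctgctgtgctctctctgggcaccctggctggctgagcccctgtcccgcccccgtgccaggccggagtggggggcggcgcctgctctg
Cyp27b1: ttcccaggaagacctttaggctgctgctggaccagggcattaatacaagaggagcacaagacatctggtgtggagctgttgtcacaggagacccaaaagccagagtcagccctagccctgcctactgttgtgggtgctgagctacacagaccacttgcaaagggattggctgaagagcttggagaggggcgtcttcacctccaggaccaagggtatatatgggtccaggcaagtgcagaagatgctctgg

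Such windows were found for 8 of the 10 genes. Each was searched on both strands for 4 short motifs: AGTTCA, a hexamer bound by the vitamin D receptor; AGGTCA, a hexamer of nuclear receptors in general; AGATAA, bound by GATA factors; and ACGTG, the core of hypoxia response elements. In the Fgf23 window a single AGATAA lay 228 bases before the start, and such a match was present in 9.99% of all 32851 RefSeq windows of that length. The windows of Kl and Cyp27b1 held none of the 4 motifs. AGTTCA, present in 11.8% of windows, was found 17 bases before the start of Slc34a1, 10 bases before that of Phex and, on the opposite strand, 91 bases before that of Vdr. AGGTCA, present in 14% of windows, occurred in the Slc34a3 window both 33 and 6 bases before the start, and ACGTG, present in 16.6%, only in 1 of the 2 windows of Dmp1. These matches describe letters in the windows and were not examined as binding sites.

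Of the 6 genes tested in marrow, 4 were called, Fgf23, Fgfr1 and Vdr higher and Phex lower with oxaliplatin, beside 23.3% of all genes (11.6% higher and 11.8% lower). The groups of 3 did not overlap, all higher, beside 24.9% of all genes (11.4% higher and 13.5% lower). Since the set was chosen on such differences, nothing is read from these counts.

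PHEX, an endopeptidase of the osteocyte and osteoblast surface, and DMP1, a matrix protein of osteocytes, are the restrainers of FGF23 in bone. Phex (GRCm38 chromosome X, 157162075 to 157415312) read 2.88, 2.59, 5.64, 6.87 and 2.96 CPM in the vehicle mice and 1.07, 2.26, 3.15, 2.20 and 1.21 CPM in the oxaliplatin mice. The groups overlapped, since oxaliplatin mouse 3 exceeded 3 vehicle mice, and 4 of 5 oxaliplatin mice lay below every vehicle mouse. This gave a log2 fold change of -1.08 (SE 0.360). Its call was lost when any of vehicle mice 3 and 4 or oxaliplatin mice 1, 2, 4 and 5 was left out, with log2 fold changes between -1.31 and -0.83 over the single libraries left out. Dmp1 (chromosome 5, 104202613 to 104214102) read 1.84, 0.727, 2.71, 0.941 and 2.08 CPM with vehicle and 1.47, 1.22, 4.31, 2.83 and 0.728 CPM with oxaliplatin. Its groups overlapped almost fully, and its log2 fold change of 0.36 (SE 0.478) became -0.07 without oxaliplatin mouse 3 and -0.54 without oxaliplatin mice 3 and 4.

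**Figure D1:**
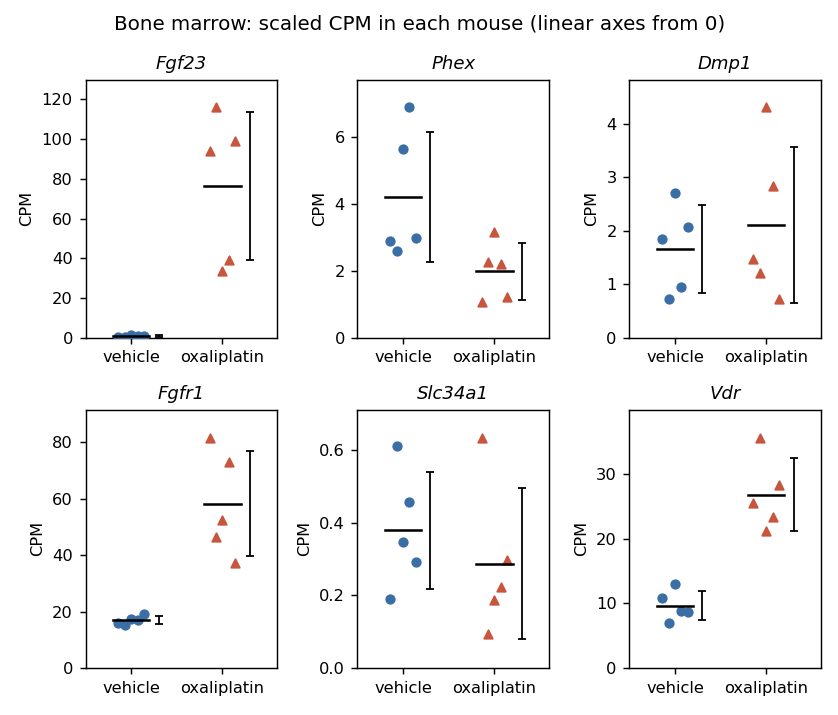
Scaled CPM of the 6 tested genes of the FGF23 axis in bone marrow, 1 point per mouse (circles vehicle, triangles oxaliplatin, 5 mice each), with the mean as a horizontal line and the SD as a bar at the side; each vertical axis is linear and starts at 0. Fgf23 read at most 1.58 CPM with vehicle and at least 33.6 CPM with oxaliplatin, Fgfr1 and Vdr did not overlap between treatments, and Phex, Dmp1 and Slc34a1 did.

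RNA of osteocytes, the main but not the only known source of FGF23, was low in these marrow libraries. The osteocyte list (Dmp1, Phex, Sost, Mepe, Dkk1 and Pdpn) summed to 4.16 to 9.55 CPM with vehicle and 3.37 to 8.90 CPM with oxaliplatin, with 3 of the 6 genes tested and 1 of these called, Phex, lower. Most of this sum came from Phex and Dmp1, which belong to the set described here, so it is no separate measure of osteocytes. The defining osteocyte genes Sost, which encodes sclerostin, and Mepe were at or near 0, with at most 0.063 and 0.065 CPM with vehicle and at most 0.313 and 0.356 CPM with oxaliplatin. Each read above every vehicle mouse in 4 of 5 oxaliplatin mice, on at most 16 reads, too few to test, and the part of osteocytes in the Fgf23 difference was not tested. Of 7 osteoblast genes 2 were called lower, Ibsp and Runx2, and 0 higher. That is 28.6% called, beside 23.3% of all genes tested in marrow. Nothing is read from the osteocyte and osteoblast counts.

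Markers of other cells moved with treatment in the same libraries, where 11.6% of all genes tested were called higher and 11.8% lower. All 6 adipocyte genes rose (median log2 fold change 6.79, summed 76.2 to 143.3 CPM with vehicle and 492.4 to 2460 CPM with oxaliplatin), and 5 of 6 skeletal muscle genes rose. Of 6 endothelial genes 2 rose, Cdh5 and Emcn (sum 336.4 to 417.0 CPM with vehicle and 412.4 to 729.5 CPM with oxaliplatin), and of 6 stromal genes 2 rose, Kitl and Col3a1 (1645 to 2127 CPM and 1966 to 3059 CPM). All 6 erythroid genes fell (22690 to 40150 CPM against 2768 to 7336 CPM), as did all 6 B cell genes. Of 6 erythroid progenitor genes 4 fell and 0 rose (1683 to 2177 CPM against 611.0 to 1225 CPM). Among oxaliplatin mice the adipocyte sum was lowest in mouse 5, at 492.4 CPM, where Fgf23 was 99.0 CPM, and highest in mouse 4, at 2460 CPM, where Fgf23 was 39.1 CPM. Muscle RNA was lowest in oxaliplatin mouse 4, at 43.6 CPM, below the 103.4 CPM of vehicle mouse 3, whose Fgf23 was 1.58 CPM. The part of these cell types in the Fgf23 difference was not tested.

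**Figure D2:**
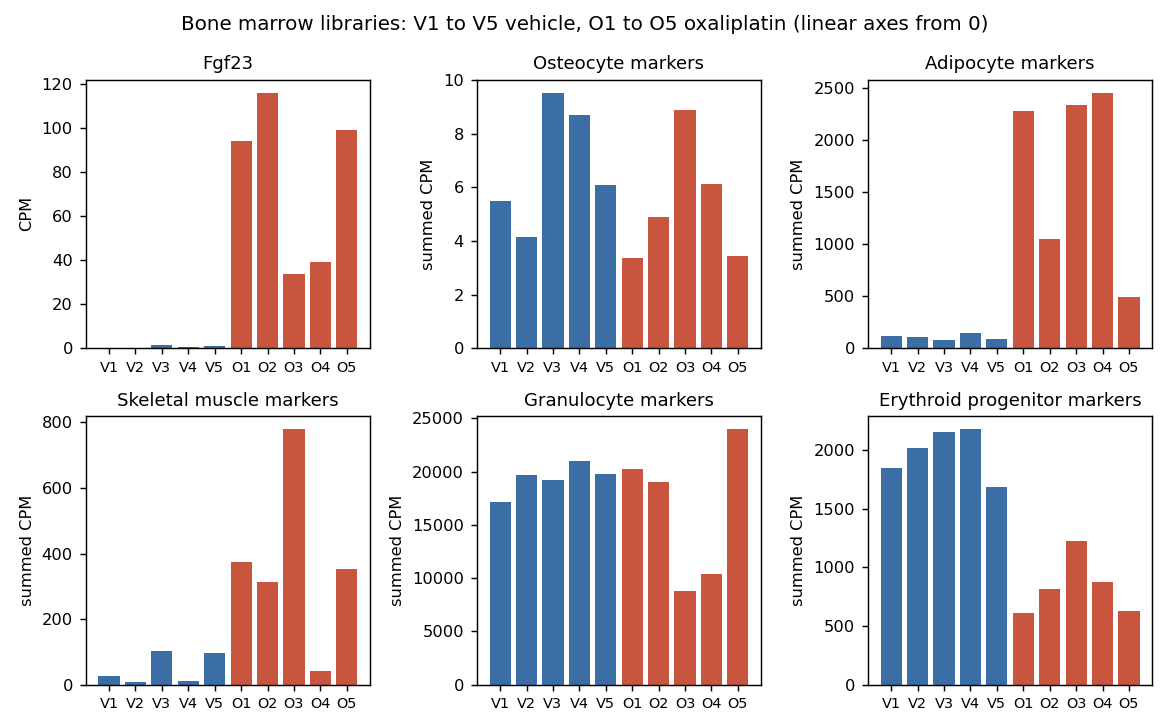
Fgf23 CPM and the summed CPM of 5 marker lists in each bone marrow library, V1 to V5 vehicle (blue) and O1 to O5 oxaliplatin (red), on linear axes that start at 0. Fgf23 was lowest in O3 and O4 among the oxaliplatin libraries, the same 2 with the least granulocyte RNA, whereas adipocyte RNA was lowest in O5 and muscle RNA in O4.

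Fgfr1 (chromosome 8, 25513654 to 25575718), the receptor that pairs with Klotho, was higher in marrow with oxaliplatin. It read 16.1, 15.3, 17.3, 17.1 and 19.1 CPM in the vehicle mice and 81.7, 46.4, 52.3, 73.1 and 37.3 CPM in the oxaliplatin mice. The groups did not overlap, and the log2 fold change was 1.78 (SE 0.189), or 3.42-fold. In kidney Fgfr1 was 95.1 ± 3.87 CPM (SD, n = 5) with vehicle and 99.3 ± 4.74 CPM (SD, n = 5) with oxaliplatin, with overlapping groups and a log2 fold change of 0.06 (SE 0.060). Fgfr1 shares 164 exonic bases with an antisense gene, Gm16159, whose mean count was 16 in marrow and 18.6 in kidney.

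Kl (chromosome 5, 150952607 to 150993817), the co-receptor, was abundant in kidney and at the floor in marrow. In the vehicle kidneys it read 958.9, 912.3, 967.2, 894.9 and 979.5 CPM, and in the oxaliplatin kidneys 594.8, 1017, 840.9, 790.3 and 587.8 CPM. The vehicle mice were close together (coefficient of variation 3.91%) and the oxaliplatin mice were not (23.5%). Mice 1 and 5 read lowest, and mouse 2 read above every vehicle mouse. Its log2 fold change was -0.30 (SE 0.127), not called. In marrow, Kl had 0 to 5 reads with vehicle and 1 to 10 with oxaliplatin, too few to test, so that the marrow in which Fgf23 was high held next to no RNA of its co-receptor.

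Slc34a1 (chromosome 13, 55398187 to 55415592), which carries most of the phosphate taken back in the proximal tubule, was abundant in kidney. By mean log2 CPM, which is not divided by exon length, it ranked 4th of all genes tested there. It read 8746, 8264, 8520, 8345 and 8747 CPM with vehicle and 6155, 8211, 8035, 6730 and 5924 CPM with oxaliplatin. All oxaliplatin mice lay below all vehicle mice, though mouse 2 only narrowly (8211 against 8264 CPM), and mice 1 and 5 were again the lowest. A log2 fold change of -0.28 (SE 0.097) was short of the 1.5-fold needed for a call. Slc34a3 (chromosome 2, 25228898 to 25234364), the partner transporter, pointed the other way. It read 81.7, 73.2, 75.2, 80.1 and 72.4 CPM with vehicle and 81.8, 119.0, 122.3, 91.9 and 77.9 CPM with oxaliplatin, so that 4 of 5 oxaliplatin mice exceeded every vehicle mouse, mouse 1 only just. Its log2 fold change was 0.37 (SE 0.117), not called. In marrow Slc34a1 was 0.379 ± 0.161 CPM (SD, n = 5) with vehicle and 0.287 ± 0.207 CPM (SD, n = 5) with oxaliplatin, with overlapping groups, and Slc34a3 had 0 to 5 reads.

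Of the 7 genes tested in kidney, 1 was called, Cyp27b1, higher, beside 11.5% of all genes tested there (7.68% higher and 3.81% lower), and 2 had groups that did not overlap, Slc34a1 and Vdr, both lower, beside 20.7% of all genes without overlap (9.69% higher and 11% lower). Nothing is read from either count.

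Cyp27b1 (chromosome 10, 127048250 to 127053006), the 1-alpha-hydroxylase that makes active vitamin D, had the largest difference of the set in kidney. It read 18.6, 8.57, 14.5, 16.5 and 24.9 CPM in the vehicle mice and 24.1, 33.0, 23.3, 38.5 and 47.0 CPM in the oxaliplatin mice. The groups overlapped through vehicle mouse 5, which exceeded oxaliplatin mice 1 and 3. The log2 fold change was 1.00 (SE 0.299), a 2.00-fold higher level. It remained between 0.83 and 1.19 over the single libraries left out, but the call was lost without vehicle mouse 1, 3 or 4 or oxaliplatin mouse 2, 4 or 5. In marrow Cyp27b1 had 5 to 10 reads with vehicle and 8 to 26 with oxaliplatin, too few to test.

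Cyp24a1 (chromosome 2, 170482708 to 170497145), the 24-hydroxylase that degrades vitamin D and a well known target of its receptor, varied widely within each group in kidney. It read 177.7, 114.9, 97.8, 67.4 and 47.7 CPM with vehicle and 181.6, 109.5, 179.1, 59.2 and 169.1 CPM with oxaliplatin. The highest mouse exceeded the lowest 3.72-fold with vehicle and 3.07-fold with oxaliplatin, and the groups overlapped almost fully. With a log2 fold change of 0.47 (SE 0.426), it was not called. Cyp24a1 shares 83 exonic bases with Pfdn4 on the other strand, whose mean count in kidney was 87.7. In marrow it had 1 read in all 10 libraries together.

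Vdr (chromosome 15, 97854425 to 97910630) differed in opposite directions in the 2 tissues. In marrow it read 10.8, 6.98, 12.9, 8.84 and 8.61 CPM with vehicle and 25.5, 35.6, 21.1, 23.3 and 28.3 CPM with oxaliplatin, all oxaliplatin mice above all vehicle mice. Its log2 fold change there was 1.48 (SE 0.181), or 2.78-fold. In kidney it read 372.3, 333.8, 351.5, 325.0 and 332.9 CPM with vehicle and 274.8, 285.1, 289.6, 239.2 and 291.3 CPM with oxaliplatin, all oxaliplatin mice below all vehicle mice. The kidney log2 fold change was -0.31 (SE 0.070), not called. The difference between the tissues was not tested.

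**Figure D3:**
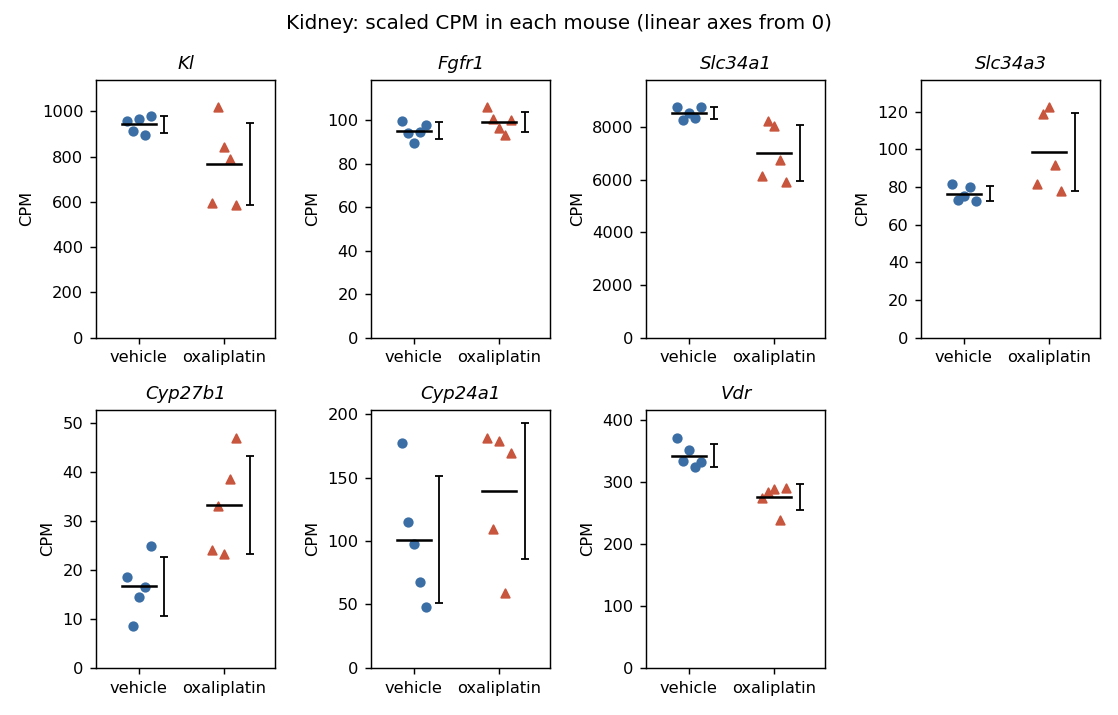
Scaled CPM of the 7 tested genes of the FGF23 axis in kidney, 1 point per mouse (circles vehicle, triangles oxaliplatin, 5 mice each), with the mean as a horizontal line and the SD as a bar at the side; each vertical axis is linear and starts at 0. Slc34a1 and Vdr lay lower in all 5 oxaliplatin mice, Kl, Slc34a3 and Cyp27b1 overlapped between treatments, and the oxaliplatin mice were more spread than the vehicle mice for Kl (23.5% against 3.91%) and Slc34a1 (15.1% against 2.61%).

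Cell type markers in kidney moved as well, where 7.68% of all genes tested were called higher and 3.81% lower. Of 6 proximal tubule genes 2 fell, Slc22a6 and Slc13a3, and the summed list was 4801 to 5365 CPM with vehicle and 3677 to 4618 CPM with oxaliplatin, lowest in oxaliplatin mouse 5. Slc5a12, Slc5a2, Slc22a8 and Aqp1 leaned higher, at log2 fold changes of 0.42, 0.23, 0.11 and 0.09, and were not called. The lower sum thus came from Slc22a6 and Slc13a3 and not from the list as a whole. The distal tubule list summed to 4942 to 5730 CPM with vehicle and 5930 to 6470 CPM with oxaliplatin, and 0 of its 6 genes were called. It also holds Umod and Slc12a1 of the thick ascending limb, so its sum does not stand for the segments highest in Kl. Of 6 podocyte genes 4 rose, and of 5 tested tubular injury genes 2 rose, Lcn2 and Spp1, while Havcr1, the gene of kidney injury molecule 1, was at 0.438 to 1.4 CPM over all 10 mice. Of 5 tested adipocyte genes 4 rose, with a sum of 20.1 to 41.7 CPM with vehicle and 176.1, 60.4, 74.1, 95.7 and 161.6 CPM with oxaliplatin. This sum was highest in mice 1 and 5, which read lowest for Kl and Slc34a1. Of 6 endothelial genes 3 rose (232.1 to 246.8 CPM against 286.4 to 389.6 CPM), as did 3 of 6 stromal genes (259.0 to 288.0 CPM against 304.9 to 382.0 CPM). The part of these lists in the differences of Kl, Slc34a1, Vdr and the pathway genes of kidney was not tested.

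Levels of different genes can be set side by side per kilobase of exon (RPKM). In vehicle kidney the order was Slc34a1 (1823 ± 47.6 RPKM, SD, n = 5 throughout), Kl (101.0 ± 3.95), Vdr (60.7 ± 3.36), Slc34a3 (32.5 ± 1.77), Cyp24a1 (28.4 ± 14.1), Fgfr1 (9.63 ± 0.392) and Cyp27b1 (6.45 ± 2.32). In oxaliplatin kidney it was Slc34a1 (1499 ± 226.3), Kl (82.1 ± 19.3), Vdr (48.9 ± 3.82), Slc34a3 (41.8 ± 8.84), Cyp24a1 (39.2 ± 15.1), Cyp27b1 (12.9 ± 3.87) and Fgfr1 (10.1 ± 0.480). Slc34a3 and Cyp24a1 lay within their spread of each other in both groups, as did Cyp27b1 and Fgfr1 with oxaliplatin. With oxaliplatin Vdr also lay within the spread of Slc34a3 and of Cyp24a1. In vehicle marrow Fgfr1 (1.72 ± 0.145 RPKM) and Vdr (1.70 ± 0.402) were highest and within their spread, followed by Phex (0.666 ± 0.309), Dmp1 (0.600 ± 0.297) and Fgf23 (0.407 ± 0.318), which were also within theirs, and Slc34a1 (0.0811 ± 0.0345). The spread of Slc34a1 there reached into that of Fgf23. With oxaliplatin Fgf23 stood first in marrow (42.1 ± 20.7), before Fgfr1 (5.89 ± 1.88) and Vdr (4.74 ± 0.993), which lay within their spread, then Dmp1 (0.764 ± 0.527) and Phex (0.314 ± 0.136), also within theirs, and Slc34a1 (0.0613 ± 0.0443).

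Set across the 2 tissues, which were extracted differently, scaled separately and not tested against each other, the sides did not cross. Kl, Slc34a1, Slc34a3, Cyp24a1, Cyp27b1, Vdr and Fgfr1 were higher in both kidney groups than in both marrow groups, and Fgf23, Phex and Dmp1 higher in both marrow groups. For Fgf23 the order of the 4 groups was oxaliplatin marrow (76.4 CPM), vehicle marrow (0.739 CPM), vehicle kidney (0.00805 CPM) and oxaliplatin kidney (0 reads, which allows up to the floor), and the 2 kidney groups cannot be told apart. For Vdr the order was vehicle kidney (343.1 CPM), oxaliplatin kidney (276.0 CPM), oxaliplatin marrow (26.8 CPM) and vehicle marrow (9.62 CPM), with no overlap between any neighbours.

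The wider pathway was read from 47 other genes in 7 lists, of which 37 were tested in marrow and 43 in kidney. The lists were chosen with earlier results of these data known. Nothing is therefore read from their counts of called genes or their medians, and the adjusted p-values below describe single genes. Over all genes tested, 11.6% were called higher and 11.8% lower in marrow, and 7.68% and 3.81% in kidney. In marrow 19 of the 37 were called, 13 higher and 6 lower, against 23.3% of all genes, and their median log2 fold change was 0.36 against -0.04 over all genes tested. In kidney 7 of the 43 were called, 6 higher and 1 lower, against 11.5% of all genes, with a median of 0.04 against 0.02. The endocrine FGFs Fgf15 and Fgf21 had too few reads to test in either tissue.

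Among 6 tested marrow genes that process FGF23 protein or act beside it in mineralization, 2 rose and 2 fell. Galnt3, whose product adds the sugars that protect intact FGF23 from cleavage, read 19.5 to 21.9 CPM with vehicle and 9.51 to 14 CPM with oxaliplatin, a log2 fold change of -0.91 (SE 0.121, edgeR adjusted p = 8.08e-05). Fam20c, the kinase that marks FGF23 for cleavage, rose from 9.77 ± 1.16 to 17.5 ± 6.47 CPM (SD, n = 5 each; log2 fold change 0.84, edgeR adjusted p = 0.0110), but the groups overlapped and the call was lost without oxaliplatin mice 3 and 4 (adjusted p = 0.0621). Furin, which cleaves FGF23, was 233.2 ± 3.31 CPM with vehicle and 247.2 ± 68.3 CPM with oxaliplatin (SD, n = 5 each; edgeR adjusted p = 0.749). The related convertase gene Pcsk5 rose from 2.21 to 4.03 CPM with vehicle to 7.69 to 17.0 CPM with oxaliplatin (log2 fold change 1.85, SE 0.239, edgeR adjusted p = 6.55e-05). Enpp1, which makes pyrophosphate, read 1.34-fold higher and was not called (adjusted p = 0.0140). Ank, a pyrophosphate transporter that limits mineralization, fell from 126.7 ± 11.3 to 38.7 ± 7.78 CPM (SD, n = 5 each; edgeR adjusted p = 1.09e-06).

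FGF receptors and co-receptors other than Fgfr1 and Kl rose in marrow for 3 of the 5 tested, and 0 fell. Klb, the beta-Klotho that serves FGF21 and FGF15 rather than FGF23, read 0.127, 0.233, 0.0945, 0.114 and 0.130 CPM with vehicle and 10.3, 3.92, 4.99, 6.85 and 0.997 CPM with oxaliplatin. The groups did not overlap, and oxaliplatin mouse 5, the lowest, also had the least adipocyte RNA. Its log2 fold change was 5.23 (SE 0.583, edgeR adjusted p = 2.12e-05). Lctl, a further gene of the Klotho family, rose by a log2 fold change of 3.22 (SE 0.673, edgeR adjusted p = 0.00241), with vehicle mouse 5 (0.390 CPM) above oxaliplatin mouse 5 (0.216 CPM). It was 4.04 without vehicle mouse 5, 4.20 with the mean log2 CPM of the Y-linked genes as a covariate and 2.56 without oxaliplatin mice 3 and 4, and with that covariate Klb had 6.02. Fgfr2 rose from 29.7 ± 1.84 to 77.0 ± 26.9 CPM (SD, n = 5 each; edgeR adjusted p = 2.04e-04). Fgfr3 was 2.92 ± 0.434 CPM with vehicle and 3.47 ± 1.31 CPM with oxaliplatin (SD, n = 5 each; edgeR adjusted p = 0.510), Fgfrl1 24.1 ± 2.55 and 32.1 ± 8.64 CPM (SD, n = 5 each; adjusted p = 0.0779), and Fgfr4 was too low to test.

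Of 8 genes known to be induced by FGF receptor signaling, 6 were called higher in marrow and 0 lower. Over all genes tested there, 11.6% were called higher and 11.8% lower. The median log2 fold change of the list was 1.21. Spry4, a feedback inhibitor, rose most, from 2.53 to 4.73 CPM with vehicle to 10.4 to 23.7 CPM with oxaliplatin (log2 fold change 2.27, SE 0.258, edgeR adjusted p = 2.33e-05). Spry1 followed, from 11.7 to 16.9 CPM to 45.9 to 75.4 CPM (log2 fold change 2.03, SE 0.148, edgeR adjusted p = 6.90e-07). The transcription factor genes Etv4, Egr1 and Etv5 had log2 fold changes of 1.67, 1.42 and 1.00, and the Sprouty-related Spred1 0.94. In all 6 the groups did not overlap, beside 11.4% of all genes tested that were higher without overlap. Dusp6, the phosphatase most often read as an FGF target, was 66.6 ± 5.95 CPM with vehicle and 80.5 ± 18.5 CPM with oxaliplatin (SD, n = 5 each; edgeR adjusted p = 0.149). These genes also respond to other growth factors, and which cells held the RNA was not measured. Among the oxaliplatin mice Spry4 read 23.7, 12.6, 16.1, 22.3 and 10.4 CPM and Egr1 25.8, 21.1, 31.6, 34.3 and 14.3 CPM. Both were highest in mice 1, 3 and 4 and lowest in mouse 5, as was the adipocyte sum (2284, 1046, 2336, 2460 and 492.4 CPM). Spred1 was also lowest in mouse 5 (50.1 CPM) but nearly level in mice 1 to 4, at 64.4, 63.7, 65.0 and 64.4 CPM. Spry1 and Etv5 were lowest in mouse 5 but read higher in mouse 2 than in mouse 3. Etv4 (2.65, 2.10, 2.19, 2.74 and 3.15 CPM) was instead highest in mouse 5. All 6 adipocyte genes, 2 of 6 endothelial and 2 of 6 stromal genes were called higher in these libraries, beside 11.6% of all genes tested. Of the stromal genes not called, Cxcl12, Pdgfrb and Vcam1 leaned higher (log2 fold changes 0.49, 0.40 and 0.10) and Lepr lower (-0.49). Of the endothelial genes not called, Kdr, Stab2 and Pecam1 leaned higher (0.51, 0.46 and 0.36) and Tek lower (-0.39). The part of these cell types was not tested.

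In marrow 2 of 6 phosphate transport genes fell and 0 rose. Pdzk1, a scaffold of membrane transporters, fell from 3.05 to 5.56 CPM with vehicle to 0.251 to 0.356 CPM with oxaliplatin (log2 fold change -3.61, SE 0.266, edgeR adjusted p = 7.75e-07). Slc20a1, a phosphate importer of most cells, fell from 102.0 ± 7.14 to 62.2 ± 4.81 CPM (SD, n = 5 each; edgeR adjusted p = 3.09e-05), while the phosphate exporter Xpr1 was 114.8 ± 3.77 and 119.5 ± 8.87 CPM (SD, n = 5 each; adjusted p = 0.611). Among vitamin D genes only Rxra, the partner of the vitamin D receptor on DNA, was called, at 1.52-fold higher (edgeR adjusted p = 0.00180) and so just past the fold threshold. Its call was lost without any of vehicle mice 1 and 5 or oxaliplatin mice 1, 2 and 4, with log2 fold changes of 0.54 to 0.58. Pdia3, a chaperone proposed as a membrane receptor of vitamin D, read 1.28-fold higher without overlap (adjusted p = 0.0185), short of a call, and Rxrb was 72.6 ± 1.56 and 66.9 ± 6.09 CPM (SD, n = 5 each; adjusted p = 0.287). Among parathyroid hormone and calcium genes Atp2b4, a calcium pump of the plasma membrane, fell to 0.320 of its vehicle level (edgeR adjusted p = 1.37e-06), Trpv5 fell from a vehicle mean of only 0.894 CPM (adjusted p = 0.0207), and Pth1r, the parathyroid hormone receptor, rose 1.67-fold with overlapping groups (adjusted p = 0.0222). Atp2b1, Slc8a1 and Slc9a3r1 missed both thresholds, at log2 fold changes of 0.05, 0.13 and 0.15. The call of Pth1r was lost without vehicle mouse 1, 2 or 3 (adjusted p = 0.0506, 0.0614 and 0.0505), without oxaliplatin mouse 4 (0.0613) and without oxaliplatin mice 3 and 4 together (0.119). Trpv5, at a log2 fold change of -1.65, lost its call without vehicle mouse 3 (adjusted p = 0.0652) and with a covariate of Y-linked genes, where the log2 fold change was -0.83 (adjusted p = 0.186), and had -2.49 without oxaliplatin mice 3 and 4. The summed erythroid progenitor markers fell in the same libraries, from 1683 to 2177 CPM with vehicle to 611.0 to 1225 CPM with oxaliplatin, and their part in the lower levels of Ank, Pdzk1, Slc20a1 and Atp2b4 was not tested.

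In kidney the called genes of the pathway were Gc, Sost, Lctl, Slc34a2, Etv4 and Spry1, all higher, and Pth1r, lower. Pth1r, through which parathyroid hormone lowers phosphate transport and raises Cyp27b1, read 1032, 900.2, 1135, 1109 and 1178 CPM with vehicle and 532.5, 706.4, 678.8, 613.3 and 468.2 CPM with oxaliplatin. The groups did not overlap, mice 1 and 5 were the lowest, and the log2 fold change was -0.84 (SE 0.108, edgeR adjusted p = 3.78e-05). Gc, the vitamin D binding protein of plasma, read 13.9 to 23.4 CPM with vehicle and 107.5, 56.6, 53.2, 66.3 and 122.8 CPM with oxaliplatin, a log2 fold change of 2.06 (SE 0.284, edgeR adjusted p = 8.75e-04), with mice 1 and 5 the highest. Slc34a2, the phosphate transporter best known from lung and gut, rose from 4.07 ± 0.868 to 7.14 ± 1.53 CPM (SD, n = 5 each; edgeR adjusted p = 0.00202). Sost rose from 0.480 ± 0.0917 to 1.13 ± 0.493 CPM (SD, n = 5 each; edgeR adjusted p = 0.0135), a low level throughout, and Lctl from 2.21 ± 0.300 to 4.37 ± 1.25 CPM (adjusted p = 0.00131).

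Of the FGF feedback targets in kidney, 2 of 8 were called, Spry1 (1.57-fold higher, edgeR adjusted p = 0.00407) and Etv4 (1.70-fold higher, adjusted p = 0.0189), both with overlapping groups, and 0 fell. Spry1 lost its call without oxaliplatin mouse 1 (log2 fold change 0.53). Etv4 lost its call without vehicle mouse 5 (adjusted p = 0.0546) or oxaliplatin mouse 5 (adjusted p = 0.0708). Egr1, an early response gene often read for FGF23 action in kidney, was 12.3 ± 8.49 CPM with vehicle and 45.0 ± 41.5 CPM with oxaliplatin (SD, n = 5 each; edgeR adjusted p = 0.0873), and Dusp6 was 63.2 ± 4.68 and 65.1 ± 11.5 CPM (SD, n = 5 each; adjusted p = 0.777).

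Of the further kidney genes named, some passed the adjusted p but not the fold threshold, and others passed neither. The scaffold genes Slc9a3r1 (NHERF1) and Pdzk1, whose products hold Slc34a1 protein at the tubule surface, read 460.2 to 541.8 and 600.9 to 647.5 CPM with vehicle and 336.2 to 454.0 and 366.3 to 494.3 CPM with oxaliplatin, without overlap, and their log2 fold changes were -0.37 and -0.50 (edgeR adjusted p = 0.00343 and 2.90e-04). Casr, the calcium-sensing receptor, read 88.6 to 104.6 CPM with vehicle and 126.2 to 162.5 CPM with oxaliplatin (log2 fold change 0.55, adjusted p = 9.15e-05). Galnt3 read 65.5 to 75.4 CPM with vehicle and 40.9 to 56.8 CPM with oxaliplatin (log2 fold change -0.46, adjusted p = 0.00119). For the endocytic receptors that take up filtered vitamin D, Lrp2 was 4699 ± 808.9 and 4565 ± 404.7 CPM (SD, n = 5 each; adjusted p = 0.80) and Cubn 776.2 ± 78.0 and 968.1 ± 81.8 CPM (SD, n = 5 each; adjusted p = 0.00802). Furin (log2 fold change -0.30, adjusted p = 0.00582) and Fgfr4 (-0.35, adjusted p = 0.00304) also read lower in all oxaliplatin mice. Fam20c, Pcsk5, Fgfr3, Fgfrl1, Spred1, Etv5, Xpr1, Rxra, Slc8a1, S100g and Calb1 had adjusted p above 0.05, with log2 fold changes between -0.24 (Fgfrl1) and 0.21 (Calb1). Fam20c in marrow and Casr, Galnt3 and Egr1 in kidney were named after their values were seen.

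**Figure D4:**
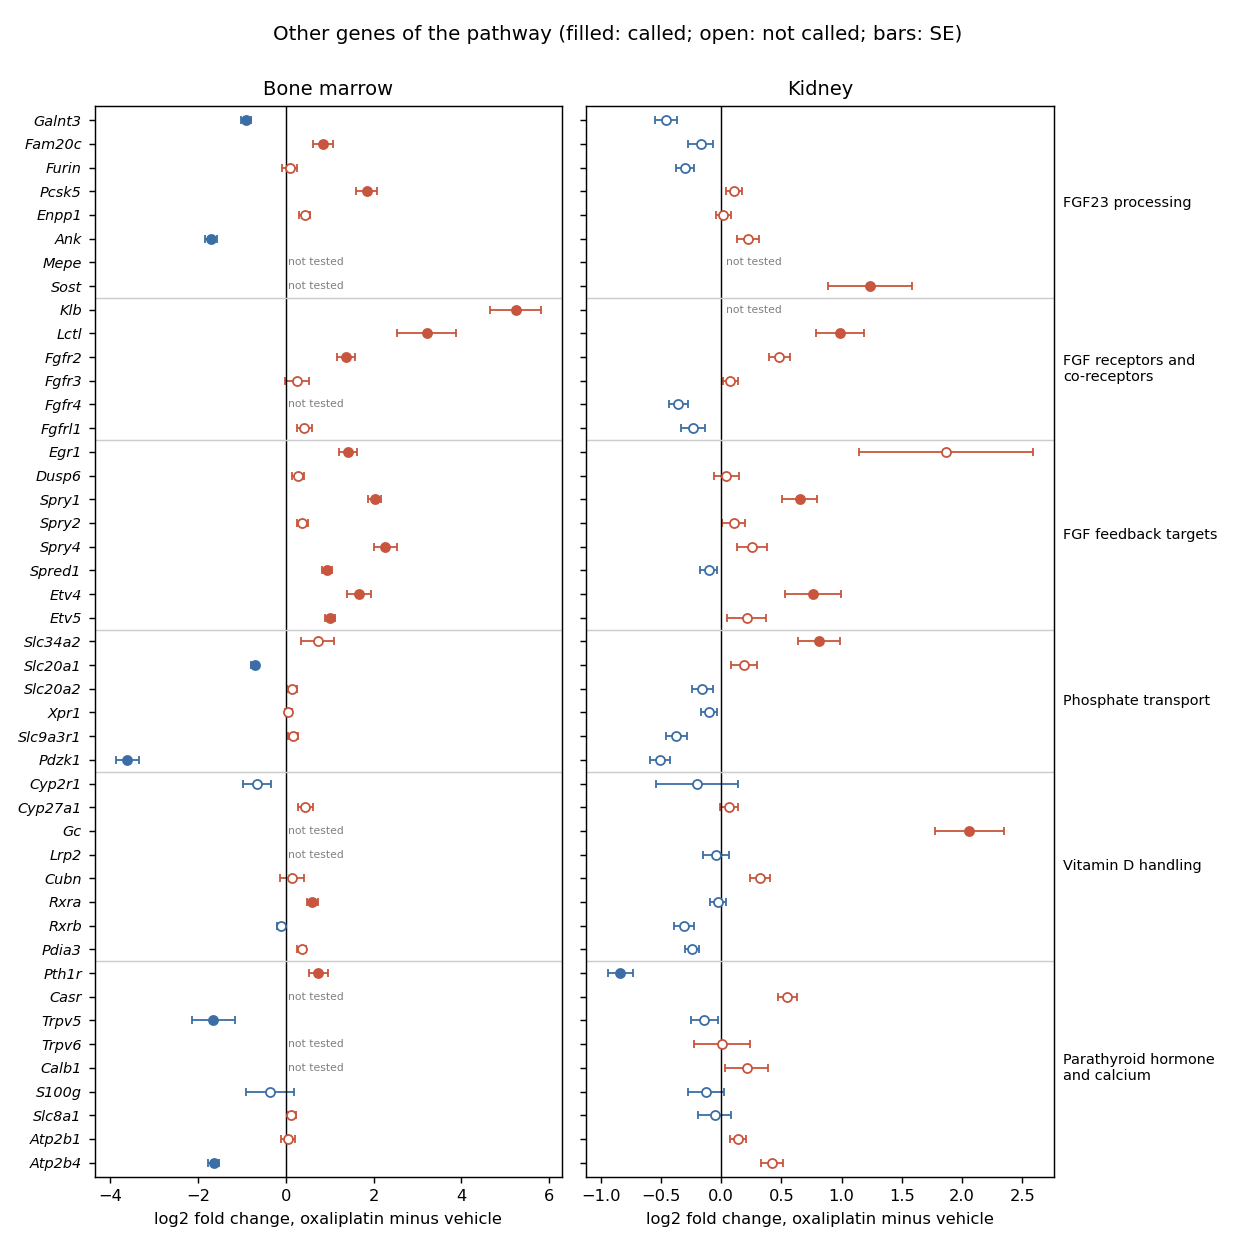
Log2 fold change (oxaliplatin minus vehicle) with its SE for the 45 other genes of the pathway drawn here, grouped by list, in bone marrow (left) and kidney (right), whose horizontal scales differ; filled points are called, open points are not, red is higher, blue is lower. In marrow 6 of 8 FGF feedback targets were called, all higher, and Klb had the largest log2 fold change at 5.23; in kidney 7 genes were called, of which Pth1r was lower.

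The genes whose levels most resembled those of Fgf23 over the 10 marrow libraries, by the root mean square difference of log2 CPM after subtraction of each gene's vehicle mean, were Prrt4 (0.918), Car4 (1.03), Hjv (1.16), Ccl12 (1.17), the non-coding Gm6093 (1.28) and Cyp26b1 (1.33). Their log2 fold changes lay between 5.28 and 10.15. The measure includes the step between treatments, so a small value does not mean that the order of mice within a group was shared. Among the oxaliplatin mice, Prrt4, Car4, Ccl12 and Cyp26b1 were lowest in mouse 3, as was Fgf23. Hjv was instead highest in mouse 3, and Gm6093 was highest in mouse 4. With a smaller prior count 4 of these 6 stayed among the nearest 6. Car4 encodes a membrane-anchored carbonic anhydrase, Hjv hemojuvelin, a regulator of iron through hepcidin, Ccl12 a monocyte-attracting chemokine and Cyp26b1 an enzyme that degrades retinoic acid. For Cyp27b1 in kidney the nearest genes were Eln (0.249), Gm16278 (0.306), Fam167a (0.308), Cntn1 (0.318), Vwa7 (0.324) and Acta2 (0.331), and all 6 stayed with the smaller prior count. Eln encodes elastin and Acta2 the actin of smooth muscle, while Gm16278 is annotated as antisense, for which the strand of the counted reads would matter and is not stated.

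**Figure D5:**
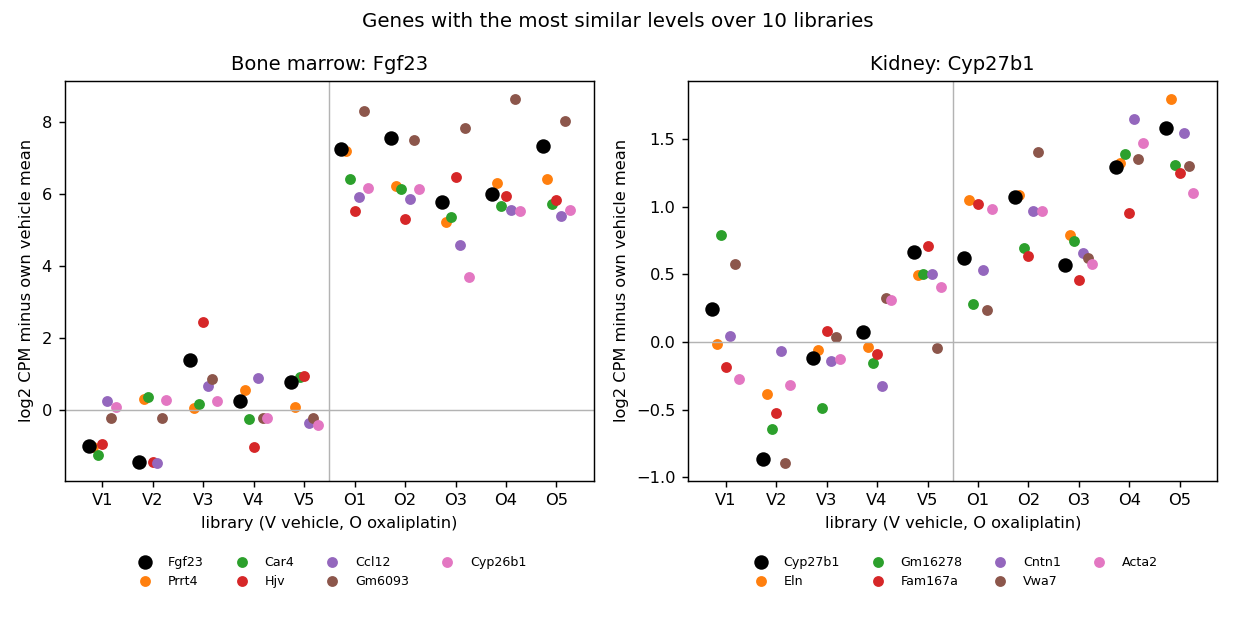
Log2 CPM minus the gene's own vehicle mean in each library (V1 to V5 vehicle, O1 to O5 oxaliplatin) for Fgf23 and the 6 nearest genes in bone marrow (left) and for Cyp27b1 and the 6 nearest genes in kidney (right), with each reference gene in black. The vertical scales differ, with the marrow genes 5.28 to 10.15 and the kidney genes 0.89 to 1.23 higher by log2 fold change.

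Erythropoietin, the kidney hormone of red cell formation, was read in the same libraries. Epo in kidney had 0 to 6 reads with vehicle, so the size of its fold change rests on counts near 0. It read 0 to 0.259 CPM with vehicle and 205.9, 28.2, 103.8, 66.0 and 219.3 CPM with oxaliplatin (log2 fold change 10.53, SE 1.05, edgeR adjusted p = 1.89e-04), highest in mice 1 and 5, which read lowest for Kl, Slc34a1 and Pth1r and had the most adipocyte RNA. The log2 fold change ranged from 10.21 to 11.49 over single libraries left out, the highest without vehicle mouse 3. No relation between Epo and the FGF23 axis was tested. Epor in marrow fell from 110.2 ± 12.3 to 46.6 ± 10.3 CPM (SD, n = 5 each; adjusted p = 2.25e-05).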

How the data were processed

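RNA was sequenced from bone marrow and kidney of 10 mice per tissue, 20 libraries in all. According to the methods, reads were mapped by the authors with STAR to Ensembl release 101 (GRCm38), and the deposited counts are those of unique and unambiguous reads per gene from Partek Flow, neither normalized nor filtered; the submitters' notes also name featureCounts and Salmon, the library chemistry is given in 2 ways (removal of ribosomal RNA, or a SMARTer kit), and the strand setting is not given in the sources used here. The 55774 lines of each table held 287 repeated identifiers and 1 line with a missing value, which were left out, leaving 55486 genes. An annotation column with the number of transcripts per gene was not used.

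Groups came from the sample titles. For each tissue separately, edgeR 4.0.16 (in R 4.3.3 with limma 3.58.1) was used to filter genes (filterByExpr, minimum count 10), to scale libraries by TMM and to run a two-sided, robust quasi-likelihood test, with treatment as the only term and Benjamini-Hochberg adjustment over all genes tested. Every adjusted p comes from this test unless another is named, every log2 fold change is oxaliplatin minus vehicle, and the SE is the log2 fold change divided by the square root of F. The members, the lists and the motifs were chosen with earlier results of these data known. Named beside the 10 genes were called genes of the pathway lists (at most 12 per tissue by size), up to 3 others per list by level, Epo, Epor and the 6 nearest genes; exceptions are stated. Exon lengths and positions came from GENCODE M21 (GRCm38), promoters from RefSeq GRCm38.p6.

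Mice of a group were labelled as biological replicates, and no 2 libraries agreed within sampling noise (smallest chi-square per degree of freedom 7.30). Depth limits genes near the floor, where a few reads decide a value. On simulated tables of 22220 marrow and 18693 kidney genes with 200 changed 3-fold, 100% were called with 5 false calls each. Every simulated gene had the same low spread between libraries, and only well-counted genes were changed. The simulation therefore does not measure recovery or false calls for low or variable genes, such as Fgf23, Phex and Cyp24a1. Alternatives were DESeq2 1.42.0, other scalings and filters, a replicate block, a Y-linked covariate, a 2-fold threshold, hemoglobin genes left out, a prior count of 0.5 and each library left out; leaving out oxaliplatin mice 3 and 4 in marrow was added after the data were seen. Figures were drawn with matplotlib 3.10.9 in Python 3.11.15.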

Additional observations from a re-analysis of the deposited data

Results flagged for a closer look

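Among 82 groups of 5 libraries examined for genes named here, 5 held a value that stood apart from the other 4 by Dixon's ratio; chance gives about 1 in 20. Klb in marrow was 0.233 CPM in vehicle mouse 2, against at most 0.130 CPM in the other vehicle mice. Lctl in marrow was 0.39 CPM in vehicle mouse 5, against at most 0.0949 CPM in the others, which puts this mouse above oxaliplatin mouse 5. Spred1 in marrow was 50.1 CPM in oxaliplatin mouse 5, against at least 63.7 CPM in the others. Pdzk1 in marrow was 0.251 CPM in oxaliplatin mouse 2, against at least 0.326 CPM in the others. Etv4 in kidney was 4.29 CPM in oxaliplatin mouse 5, against at most 2.62 CPM in the others.

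Of 39 genes tested in both tissues, 2 had groups that did not overlap in either tissue, higher with oxaliplatin in marrow and lower in kidney. Over all genes tested, 11.4% in marrow were higher without overlap and 11% in kidney lower without overlap. The share of all genes with both was not computed, and Vdr was in the set chosen on such differences, so nothing is read from this count. Vdr, the vitamin D receptor gene, had a log2 fold change of 1.48 in marrow and -0.31 in kidney, where it was not called. Pdia3 had 0.357 in marrow and -0.243 in kidney and was called in neither. The difference between the tissues was not tested for either gene.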

How the results depend on the processing

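Requiring a 2-fold change left 3231 of 5221 called genes in marrow, 941 of 2216 in kidney and 2 of 7 called pathway genes in kidney. With no filter beyond 1 count, or with a covariate of Y-linked genes, 0 of the 10 members were called in kidney in place of 1, since Cyp27b1 lost its call. With single libraries left out, the calls ranged from 4725 to 5727 genes, 17 to 20 pathway genes and 3 to 4 members in marrow, and from 1761 to 2424 genes, 6 to 8 pathway genes and 0 to 1 members in kidney. Dmp1 in marrow reversed, from a log2 fold change of 0.36 to -0.0731 without oxaliplatin mouse 3 (range -0.0731 to 0.6314 over single libraries) and to -0.5368 without oxaliplatin mice 3 and 4. Phex lost its call in 8 alternatives, among them library size alone and the Y-linked covariate, and the other members kept their direction in the alternatives in which they were tested. With at least 10 counts required in every library, Fgf23 and Slc34a1 in marrow were not tested, nor were Klb, Lctl, Pdzk1 and Trpv5 in marrow or Epo and Sost in kidney, and 3 members were called in marrow. The same number did not pair vehicle and oxaliplatin mice (correlation of deviations -0.118 to 0.228 in marrow and -0.154 to 0.0754 in kidney), and with a replicate block 4968 genes, 18 pathway genes and 4 members were called in marrow and 2017, 6 and 1 in kidney, Rxra in marrow and Etv4 in kidney losing their calls. Without TMM, on library size alone, the median over all genes moved up by 0.146 (log2) in marrow and 0.133 in kidney, and 63.4% in place of 49.6% of calls in marrow, and 82.7% in place of 66.8% in kidney, were higher with oxaliplatin. The causes were not tested. Fold changes of genes near the floor, such as Klb and Lctl with vehicle, rest on few reads.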
